A study of Mus musculus with 6 samples.

Results

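Interferon-stimulated genes and the receptors and transcription factors that control them were described in thymocyte RNA of mice, over a list of 47 genes. A gene was read by a probe set (a group of short array probes for 1 transcript) whose annotation names that gene alone, and by the probe set with the highest mean over the 6 arrays where there were several. This gave values for 42 of the 47 genes, out of 12393 genes on the array. A filter on low values, which required a value at or above the 40th percentile of its array in at least 3 arrays, kept 39 of them, out of 8693 genes. *Irf2*, *Mx1* and *Cxcl10* lay under it. *Ifi44*, *Isg15*, *Xaf1*, *Ddx58* and *Ly6e* had no probe set of their own and were not analysed here.

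The arrays fall into 2 groups of 3, labelled SCLtg LMO1tg #1 to #3 and control #1 to #3. All 6 held thymus cells of untreated C57BL6 mice, 3 weeks old and lacking CD3ε, in which T-cell development stops early because the pre-T-cell receptor does not work. The SCLtg LMO1tg mice also carried SCL under the Sil promoter and LMO1 under the Lck promoter, a promoter active in thymocytes. The study set the groups against each other to find genes behind the self-renewal of pre-leukemic thymocytes. The labels give no pooling and do not say that each array stands for a mouse of its own, so the spread between them may be partly technical. All values are log2 RMA values, on which a difference of 1 is 2-fold, and in bulk RNA fewer cells of a type and less RNA per cell cannot be told apart.

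Interferons are secreted proteins, and cells release those of type I on sensing viral nucleic acid. Type I interferons bind the receptor made of IFNAR1 and IFNAR2, interferon gamma binds the one made of IFNGR1 and IFNGR2, and both work through Janus kinases and STAT proteins. STAT2 and IRF9 form part of the complex that type I interferons send to the ISRE, a DNA element in front of antiviral genes, while interferon gamma acts mainly through the GAS element. IRF7 raises type I interferon production further, and many of the induced proteins block viral RNA, its translation or its release.

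The arrays correlated with each other at 0.969 to 0.994 over all probe sets. *Lmo1*, a transgenic oncogene, had 5.11, 5.07 and 4.86 in the arrays labelled SCLtg LMO1tg, against 6.64, 6.84 and 6.77 in those labelled control. This goes against the labels. *Tal1*, the gene of SCL, ran the way they say, but by little and under the filter in every array. It had 4.55, 4.63 and 4.71 in the arrays labelled SCLtg LMO1tg, against 4.35, 4.27 and 4.44 in those labelled control. *Ptcra*, an early thymocyte marker, had 10.35, 10.32 and 10.39 in the arrays labelled SCLtg LMO1tg, against 9.36, 8.96 and 8.90 in those labelled control. The paper describes *Ptcra* as a target that SCL inhibits, so its direction also goes against the labels. *Ptcra* was named here after its values were seen, and an exchange of the labels was not tested. Directions by the labels oppose those of the study, and every direction below is that of the labels as they stand. The mean of 9 bacterial hybridization control probe sets set SCLtg LMO1tg #1 and control #2 and #3 (10.24 to 10.45) apart from SCLtg LMO1tg #2 and #3 and control #1 (8.64 to 9.19), and these are called the high and the low hybridization set. The labels name no batch, and the sets rest on these values alone. In the low set, control #1 (9.19) lay above SCLtg LMO1tg #2 (8.70) and #3 (8.64). *Cd3e* transcript was read at 8.53 to 8.65 in the arrays labelled SCLtg LMO1tg and at 8.41 to 8.72 in those labelled control, and the sources do not tell whether its probes lie in the deleted part.

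Control #3 stood apart from the other arrays by its antiviral genes, though not by these alone. Genes outside the list, such as *Ptprs* (1.57) and *Cirbp* (1.37), also lay well above the mean of control #1 and #2. Relative to the mean of control #1 and #2, 8 of the 42 genes were higher in control #3 by 1 or more, or 19.0%, where 0.194% of all 12393 genes were (24 genes). No member was lower by 1 or more (0 of 42), where 0.936% of all genes were (116 genes). The median difference over the 42 genes was 0.45, against 0.07 over all genes, and 33 of 42 lay above the mean of the other controls, against 60.1% of all genes. Control #3 held the highest value of the 6 arrays for 27 of the 42 (64.3%), against 32.1% of all genes. With 1 array on that side, there is no test of these differences, and no replicate check. The members were chosen with earlier results of these data known, so the contrasts with all genes are a description. The 8 genes, with their excess over the other controls, were *Ifit3* (2.44), *Ifit1* (1.62), *Oasl2* (1.58), *Rsad2* (1.51), *Trim30a* (1.20), *Ifitm3* (1.18), *Iigp1* (1.08) and *Dhx58* (1.07). All 8 were among the 20 genes of the array furthest above the other controls, with 11 members among the first 100. When each array was set against the other 2 of its label, the other 5 arrays had 1 such gene between them, *Rsad2* in SCLtg LMO1tg #3, and control #1 had 3 genes lower by 1 or more, against a mean that includes control #3.

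**Figure D1:**
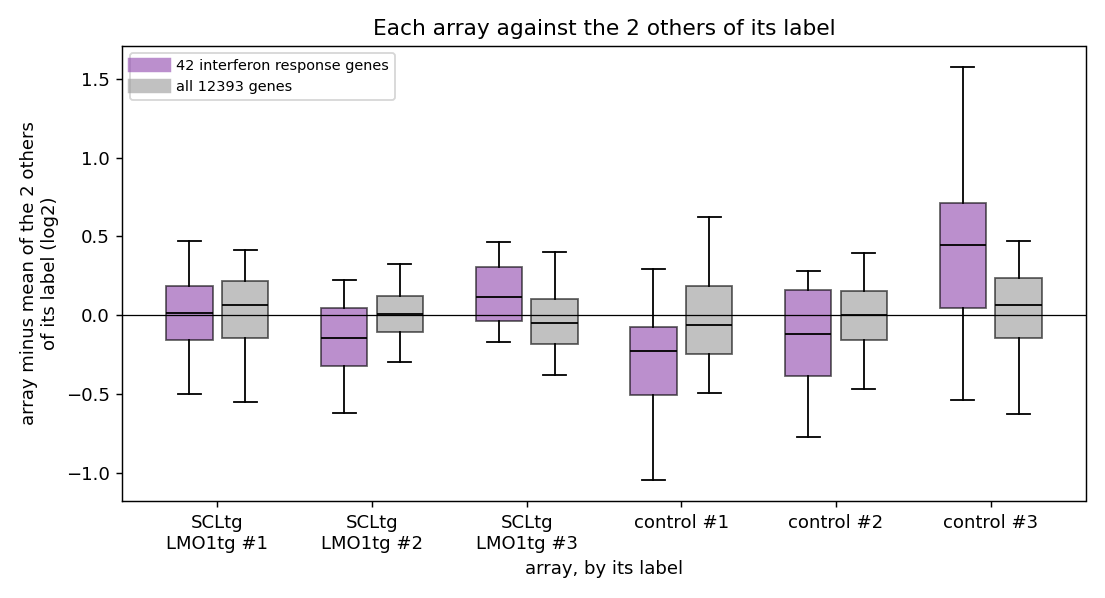
Each array minus the mean of the other 2 arrays of its label (log2, y axis), for the 42 interferon response genes (purple) and all 12393 genes (grey), by array (x axis); lines are medians, boxes the 25th to 75th and whiskers the 5th to 95th percentiles. The members' median is 0.45 in control #3 and between −0.23 and 0.12 in the other 5 arrays.

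*Ifit3* and *Ifit1* encode proteins with tetratricopeptide repeats, and that of *Ifit1* binds viral RNA and blocks its translation. *Ifit3* had 6.47, 5.87 and 6.51 in the arrays labelled SCLtg LMO1tg, against 8.72 in control #3 and 6.01 and 6.55 in control #1 and #2. The excess of control #3 was the largest of all genes on the array. *Ifit1* had 6.27, 6.40 and 6.71 in the arrays labelled SCLtg LMO1tg, against 8.23 in control #3 and 6.69 and 6.52 in control #1 and #2. For both genes the 5 other arrays lay within 1 of each other, and control #3 lay above all of them. *Ifit2*, of the same family, had 5.48 to 5.72 in the arrays labelled SCLtg LMO1tg, against 6.16 in control #3 and 5.66 and 5.73 in control #1 and #2.

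The promoters of both genes hold 2 matches to the ISRE each, and are shown with those of *Rsad2* and *Trim30a*, 2 more of the 8 genes, and of *Irgm1*, which has the element but no excess in control #3. The letters searched were GAAA followed, after 2 bases of any kind, by GAAA again, on either strand (TTTC, 2 bases and TTTC when read on the other), and capitals mark the matches. Each sequence is the 170 bases upstream of the annotated start, 5′ to 3′ in the direction of the gene, from RefSeq on GRCm38.p6. The positions are chr19:34583359-34583528 (plus strand), chr19:34640719-34640888 (plus strand), chr12:26456453-26456622 (minus strand), chr7:104465194-104465363 (minus strand) and chr11:48871421-48871590 (minus strand).
Ifit3: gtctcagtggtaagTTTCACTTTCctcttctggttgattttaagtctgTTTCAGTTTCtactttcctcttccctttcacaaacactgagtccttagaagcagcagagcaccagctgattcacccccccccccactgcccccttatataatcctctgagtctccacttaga
Ifit1: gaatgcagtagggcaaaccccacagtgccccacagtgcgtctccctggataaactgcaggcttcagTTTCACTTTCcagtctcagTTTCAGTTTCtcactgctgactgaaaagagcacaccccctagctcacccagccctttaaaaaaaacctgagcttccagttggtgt
Rsad2: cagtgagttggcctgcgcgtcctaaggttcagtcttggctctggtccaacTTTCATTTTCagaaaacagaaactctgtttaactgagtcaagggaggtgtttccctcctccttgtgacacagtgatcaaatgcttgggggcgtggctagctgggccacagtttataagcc
Trim30a: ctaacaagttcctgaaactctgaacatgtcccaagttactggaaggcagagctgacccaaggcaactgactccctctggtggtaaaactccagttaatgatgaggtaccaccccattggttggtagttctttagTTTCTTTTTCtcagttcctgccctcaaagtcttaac
Irgm1: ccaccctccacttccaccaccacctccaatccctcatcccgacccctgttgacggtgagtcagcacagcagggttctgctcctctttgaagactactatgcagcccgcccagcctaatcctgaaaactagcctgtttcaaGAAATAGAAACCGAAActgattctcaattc

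In *Ifit3* the matches begin 156 and 122 bases before the start, and in *Ifit1* 104 and 85 bases before it. *Rsad2* has its match 120 bases and *Trim30a* 36 bases before the start, for *Trim30a* at the start shown, and a window at another annotated start of *Trim30a* also held a match, just after that start. In *Irgm1* the 2 matches, 30 and 24 bases before the start, overlap. Over windows of 250 bases before to 50 after a start, 17 of the 37 listed genes with a window held the letters (45.9%), against 3.99% of 27025 genes. The second element, TTCNNNGAA, which reads the same on both strands, was in 14 of 37 (37.8%), against 9.55% of genes. Of the genes with both a window and a probe set, the ISRE letters were in 5 of the 6 that exceeded the other controls by 1 or more in control #3 and in 10 of the 27 that did not. By role, they were in 6 of 13 antiviral effectors, 4 of 5 GTPases and 2 of 10 receptors and regulators. *Oasl2*, the exception among the 6, has no match in its window. The matches of *Ifitm3* lie after its start, and *Iigp1* and *Dhx58* had no window. A match is a description of the letters and shows no binding, and the split by the values of control #3 was not tested.

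*Oasl2*, a relative of the oligoadenylate synthetases that detect double-stranded RNA, had 7.11, 6.49 and 6.82 in the arrays labelled SCLtg LMO1tg, against 8.35 in control #3 and 6.32 and 7.23 in control #1 and #2. Control #3 was the highest array, but control #1 and #2 differed from each other by more than the SCLtg LMO1tg arrays did. *Rsad2*, which encodes viperin, an enzyme that makes a chain-terminating nucleotide, had 9.42, 9.60 and 10.57 in the arrays labelled SCLtg LMO1tg, against 10.90 in control #3 and 9.40 and 9.38 in control #1 and #2. Here SCLtg LMO1tg #3 was the array nearest to control #3. *Rsad2* was the member with the widest spread in that label, and a second probe set of it gave 1.42 for control #3 against the other controls, while the other one gave 0.45.

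*Ifitm3*, whose membrane protein stops viruses from fusing in endosomes, had 7.08, 6.36 and 6.83 in the arrays labelled SCLtg LMO1tg, against 7.80 in control #3 and 6.43 and 6.81 in control #1 and #2. *Trim30a*, a ring-finger protein that dampens inflammatory signalling in the mouse, had 9.38, 9.08 and 9.33 in the arrays labelled SCLtg LMO1tg, against 10.54 in control #3 and 9.38 and 9.29 in control #1 and #2. *Trim30a* was thus level across 5 arrays and higher in the sixth, although its other probe set gave 0.37 for the same difference. *Iigp1*, an immunity-related GTPase that attacks the vacuoles of parasites, had 8.16, 7.68 and 8.51 in the arrays labelled SCLtg LMO1tg, against 9.46 in control #3 and 8.43 and 8.34 in control #1 and #2. A second probe set of *Iigp1*, which lay under the filter, gave 1.14, close to the 1.08 of the first. *Dhx58*, the RNA helicase LGP2 that tunes RNA sensing, had 7.50, 7.21 and 7.50 in the arrays labelled SCLtg LMO1tg, against 8.45 in control #3 and 7.03 and 7.72 in control #1 and #2. Its 2 other probe sets gave −0.26 and, under the filter, 0.21, so the excess of *Dhx58* rests on the probe set with the highest mean.

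**Figure D2:**
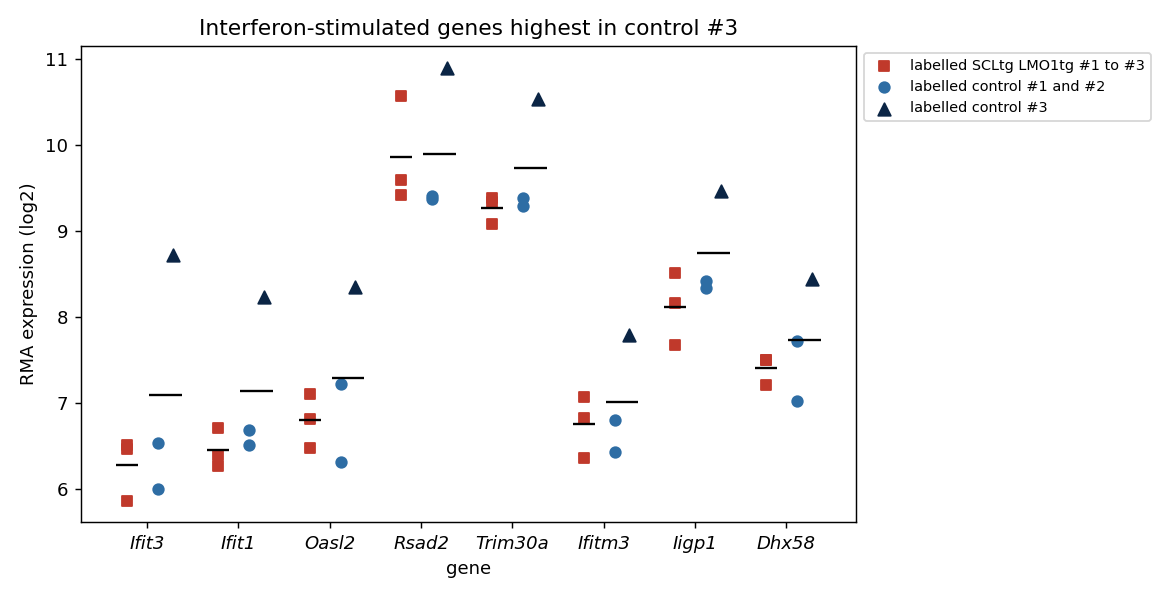
RMA expression (log2, y axis) of the 8 genes that exceeded the other controls by 1 or more in control #3 (x axis), with a point for each array and a line at each label's mean over 3 arrays. Control #3 (triangles) is the highest array for each of the 8 genes, from 7.80 for *Ifitm3* to 10.90 for *Rsad2*.

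The other antiviral effectors differed less in control #3. Of the 16 effectors measured, *Ifit3* and *Ifit1* included, 15 lay above the mean of the other controls, with a median difference of 0.58. *Mx1*, a dynamin-like GTPase against influenza-type viruses, was under the filter, with 4.74 in control #3 and 3.93 and 4.10 in control #1 and #2. *Isg20*, an exonuclease, exceeded them by 0.65, *Mx2* by 0.59, the kinase gene *Eif2ak2* by 0.57, the nucleic acid sensor *Zbp1* by 0.56 and *Oas2* by 0.49. *Bst2*, the tether that holds virions at the cell surface, differed by 0.16, *Samhd1*, which breaks down deoxynucleotides, by 0.15, and *Oasl1* by 0.07. *Adar*, the RNA-editing enzyme, was the effector that was not higher, at −0.03.

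Among the genes of the ISG15 and ubiquitin systems, *Usp18* encodes the protease that removes ISG15 and also restrains the type I receptor. *Usp18* had 7.53, 7.32 and 7.76 in the arrays labelled SCLtg LMO1tg, against 8.64 in control #3 and 8.08 and 7.65 in control #1 and #2. *Trim25*, a ubiquitin ligase of the RNA sensor pathway, showed no such excess, with 11.05, 11.41 and 11.20 in the arrays labelled SCLtg LMO1tg, against 11.19 in control #3 and 11.14 and 11.09 in control #1 and #2. *Ifih1*, the RNA sensor MDA5, had 8.69, 8.70 and 9.02 in the arrays labelled SCLtg LMO1tg, against 9.25 in control #3 and 8.72 and 8.28 in control #1 and #2. For *Usp18* and *Ifih1* control #3 was again the highest array.

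The interferon-inducible GTPases were split. After *Iigp1*, *Gbp3* exceeded the other controls by 0.45 in control #3, *Igtp* by 0.36 and *Gbp2* by 0.19, while *Irgm1* differed by −0.14 and *Ifi47* by −0.23. The 5 genes of other roles were all higher in control #3, with a median difference of 0.59: *Rtp4*, which in the mouse limits interferon responses, by 0.60, *Ifi35* by 0.60, *Parp14* by 0.59, *Cxcl10* by 0.30 and *Lgals3bp* by 0.04. *Cxcl10*, a chemokine gene induced strongly by interferon gamma, lay under the filter, at 4.10 to 4.14 in the arrays labelled SCLtg LMO1tg and 4.01 to 4.36 in those labelled control.

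Receptors and transcription factors did not share this pattern as a group, although *Irf7*, *Irf9* and *Irf2* were highest in control #3. Only 4 of the 10 lay above the other controls in control #3, with a median difference of −0.06, and none differed by 1 or more. *Ifnar1* had 6.14, 6.60 and 6.32 in the arrays labelled SCLtg LMO1tg, against 6.01 in control #3 and 6.58 and 6.55 in control #1 and #2. *Ifnar2* had 7.25, 7.47 and 7.53 in the arrays labelled SCLtg LMO1tg, against 7.25 in control #3 and 7.59 and 7.47 in control #1 and #2. By these probe sets control #3 was the lowest control for both chains of the type I receptor, but the other probe set of *Ifnar2* had 6.18, 6.26 and 6.21 in the arrays labelled SCLtg LMO1tg, against 6.51 in control #3 and 6.003 and 6.36 in control #1 and #2, where control #3 was the highest. *Ifngr1*, the ligand-binding chain of the interferon gamma receptor, had 9.31, 9.75 and 10.003 in the arrays labelled SCLtg LMO1tg, against 8.97 in control #3 and 9.85 and 9.22 in control #1 and #2. *Ifngr2* had 5.35, 5.16 and 5.42 in the arrays labelled SCLtg LMO1tg, against 5.58 in control #3 and 5.52 and 5.81 in control #1 and #2. Control #3 was the lowest array for *Ifnar1* and *Ifngr1* and lay inside the controls for *Ifngr2*.

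*Irf7* had 7.73, 7.04 and 7.29 in the arrays labelled SCLtg LMO1tg, against 8.39 in control #3 and 7.68 and 8.24 in control #1 and #2. *Irf9* had 7.24, 7.08 and 7.40 in the arrays labelled SCLtg LMO1tg, against 7.96 in control #3 and 7.44 and 7.60 in control #1 and #2. Both factors were highest in control #3, by 0.42 and 0.44 over the other controls, and both are themselves induced by interferon. *Stat2* had 5.95, 5.73 and 6.19 in the arrays labelled SCLtg LMO1tg, against 6.20 in control #3 and 6.03 and 6.33 in control #1 and #2. *Irf1*, the main early factor of the interferon gamma response, was the most even of the regulators, with 9.02, 8.97 and 8.91 in the arrays labelled SCLtg LMO1tg, against 9.02 in control #3 and 9.04 and 9.05 in control #1 and #2. *Irf2*, a repressor at the same sites, was under the filter at 3.26, 3.38 and 3.19 in the arrays labelled SCLtg LMO1tg, against 3.66 in control #3 and 3.39 and 3.33 in control #1 and #2. *Irf8*, a factor of myeloid and dendritic cells, went the other way, with 6.57, 6.43 and 6.57 in the arrays labelled SCLtg LMO1tg, against 6.07 in control #3 and 6.85 and 7.11 in control #1 and #2. The other probe set of *Irf8* gave −0.01 for that difference, against −0.91 for the one used.

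**Figure D3:**
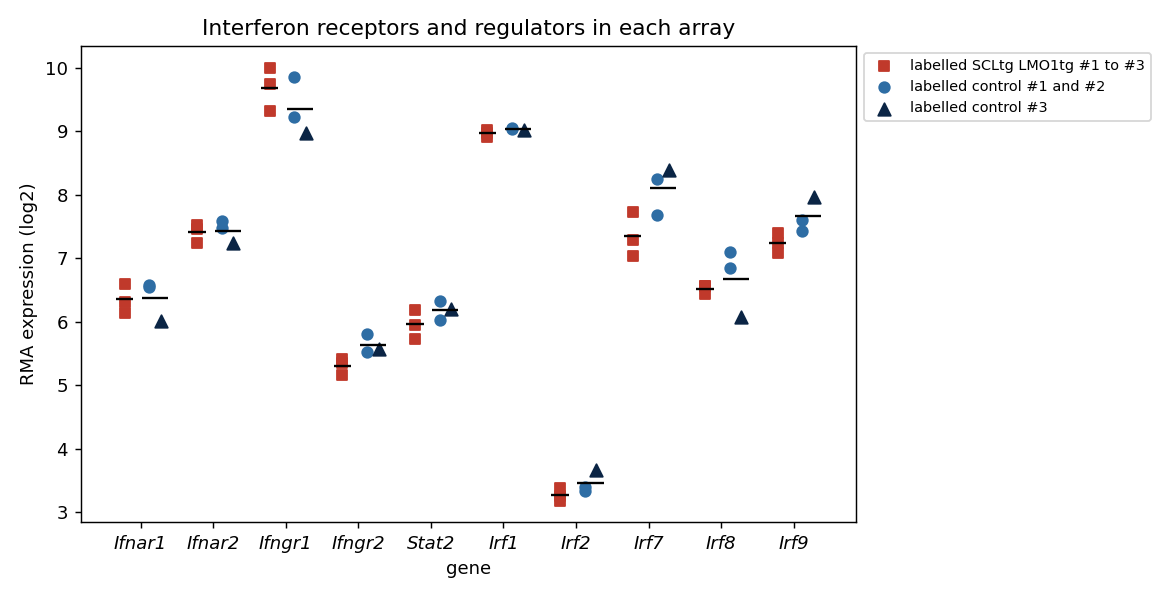
RMA expression (log2, y axis) of the 10 receptors and transcription factors of the list (x axis), with a point for each array and a line at each label's mean over 3 arrays. *Irf9* and *Ifngr2* do not overlap between the labels, and control #3 (triangles) is the highest array for *Irf7*, *Irf9* and *Irf2* and the lowest for *Ifnar1*, *Ifngr1* and *Irf8*.

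Between the labelled groups, most interferon genes had a lower mean in the arrays labelled SCLtg LMO1tg, and none passed the test. With limma over all genes past the filter, 0 of 39 members had a Benjamini-Hochberg adjusted p under 0.05, where 0.161% of the 8693 genes did (14 genes). At an unadjusted p under 0.05, 4 members were lower in the arrays labelled SCLtg LMO1tg, *Irf7*, *Irf9*, *Rtp4* and *Usp18* (10.3%, against 3.14% of all genes), and 0 were higher (against 6.30%). By Rank Products at a percentage of false positives under 0.1, *Irf7* alone was lower (1 of 39, against 0.483%) and 0 were higher (against 0.518%). The 3 arrays of each label did not overlap for *Adar*, *Ifngr2* and *Irf9*, all lower in the arrays labelled SCLtg LMO1tg (3 of 39, or 7.69%, against 6.37%), and for 0 members in the other direction (against 7.32%). The share without overlap was thus near that of all genes.

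*Irf7* averaged 7.35 ± 0.35 in the arrays labelled SCLtg LMO1tg and 8.11 ± 0.37 in those labelled control (SD, n = 3 each), and the labels differed by −0.75 (SE 0.23, adjusted p = 0.346 by limma). Its highest SCLtg LMO1tg array, 7.73, overlapped its lowest control, 7.68. *Irf9* averaged 7.24 ± 0.16 in the arrays labelled SCLtg LMO1tg and 7.67 ± 0.27 in those labelled control, a difference of −0.43 (SE 0.17, adjusted p = 0.486 by limma). *Usp18* differed by −0.59 (SE 0.24, adjusted p = 0.494 by limma) and *Rtp4* by −0.47 (SE 0.21, adjusted p = 0.520 by limma). *Ifngr2* differed by −0.32 (SE 0.15, adjusted p = 0.534 by limma) and *Adar* by −0.31 (SE 0.15, adjusted p = 0.550 by limma). None of these differences passed limma's threshold, and they do not show that the groups were alike. With array weights, which let each array have its own precision, *Irf7* did pass, at −1.03 (adjusted p = 0.0158 by limma), and its adjusted p lay between 0.0903 and 1 in the other settings. In that fit 547 of all 8693 genes passed (6.29%), against 1 of 39 members (2.56%). The same fit gave SCLtg LMO1tg #2, the array with the lowest *Irf7*, a weight of 4.96, against 0.44 to 1.45 for the others.

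For the 8 genes furthest above the other controls in control #3, the difference between the labels is given with and without that array. Since they were chosen for that excess, leaving it out had to raise each difference, and the values are a description. *Ifit3* differed by −0.81 (SE 0.57, adjusted p = 0.643 by limma) with all 3 controls and by 0.01 against control #1 and #2 alone. *Ifit1* differed by −0.69 and by −0.15 without control #3, *Iigp1* by −0.63 and −0.27, *Trim30a* by −0.47 and −0.07, and *Oasl2* by −0.50 and 0.03. *Dhx58* gave −0.33 and 0.03, *Ifitm3* −0.26 and 0.14, and *Rsad2* −0.03 and 0.47. For 5 of these 8 genes, *Ifit3*, *Oasl2*, *Dhx58*, *Ifitm3* and *Rsad2*, the sign turned without that array. *Irf7* kept −0.61 without it, *Irf9* −0.28 and *Usp18* −0.33.

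Over the list, 39 of 42 genes had a lower mean in the arrays labelled SCLtg LMO1tg (92.9%), against 59.4% of all 12393 genes, with a median of −0.24 against −0.04. Without control #3 this was 29 of 42 (69.0%), against 54.3% of all genes, with a median of −0.09 against −0.02. *Ifngr1*, at 0.34 (SE 0.25, adjusted p = 0.651 by limma), *Trim25*, at 0.08, and *Ifih1*, at 0.05, were the 3 with a higher mean. Among the receptors and regulators the median was −0.17 with control #3 and −0.21 without it, with 9 of 10 lower both times. Among the antiviral effectors it was −0.28 with all 16 lower, and −0.08 with 10 of 16 lower without control #3. Other probe sets, 19 for 14 of the genes, were lower in the arrays labelled SCLtg LMO1tg in 18 cases. Of these 19, 13 gave the same sign as the probe set used for control #3 against the other controls.

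**Figure D4:**
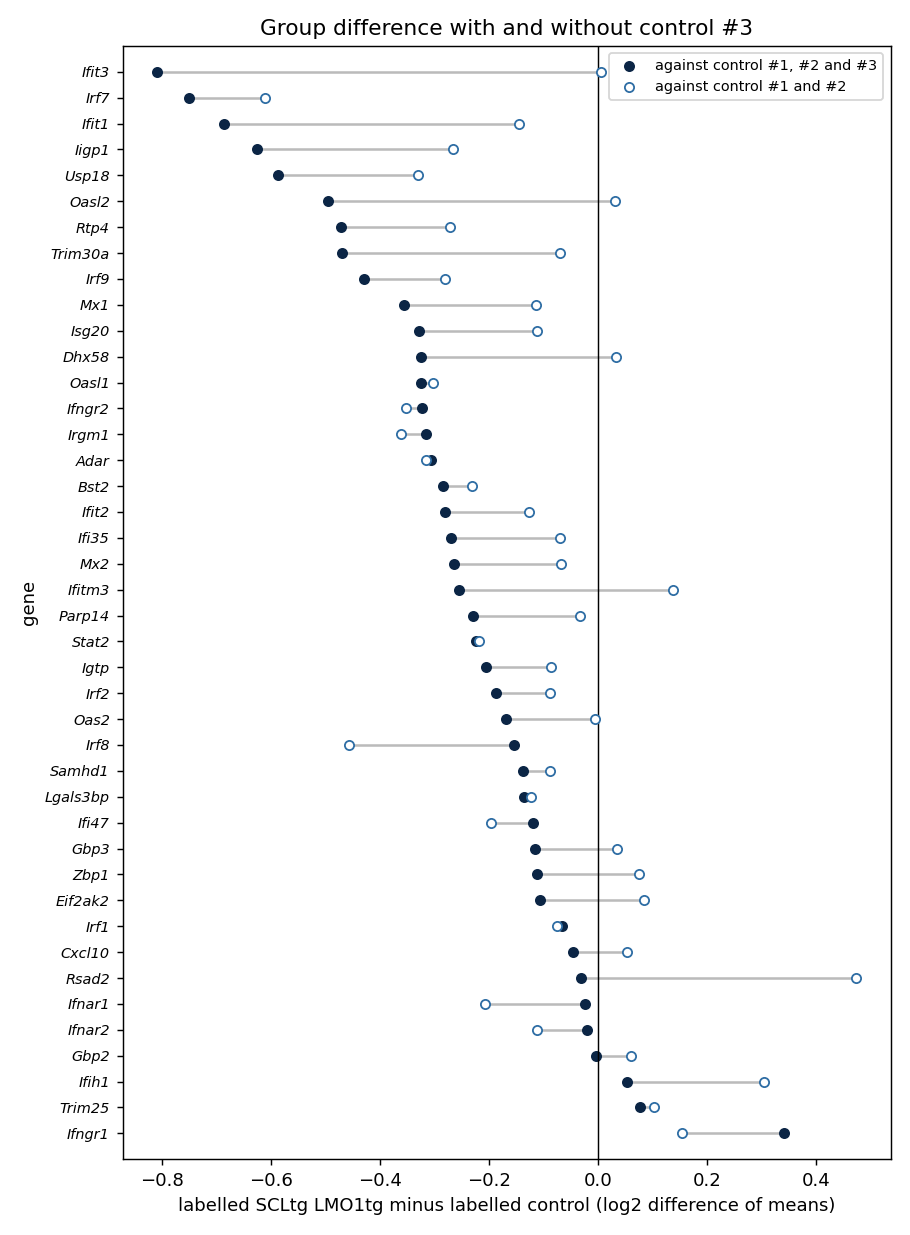
Difference of means, labelled SCLtg LMO1tg minus labelled control (log2, x axis), for each of the 42 genes (y axis), against all 3 controls (filled points) and against control #1 and #2 (open points). *Ifit3* lies at −0.81 with control #3 and at 0.01 without it, while *Irf7* lies at −0.75 and −0.61.

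The comparison was also made within each hybridization set, a grouping read from the control probe sets and not known to be a batch. In the high set, SCLtg LMO1tg #1 against control #2 and #3, the members' median was −0.29, against −0.02 for all genes. In the low set, SCLtg LMO1tg #2 and #3 against control #1, it was −0.09, against −0.01 for all genes. *Irf7* differed by −0.59 in the high and −0.52 in the low set, and *Irf9* by −0.54 and −0.20. *Ifit3* gave −1.17 in the high set, which holds control #3, and 0.18 in the low set, and *Rsad2* −0.72 and 0.68. Set against control #2 alone, which shares its hybridization set, control #3 still had a members' median of 0.40, and 6 of the 8 genes exceeded it by 1 or more, all but *Dhx58* and *Ifitm3*. Set against control #1 alone, the same 8 genes did. The difference between the 3′ and the 5′ probe sets of *Actb*, which grows as RNA breaks down, was 2.26 to 2.71 in the arrays labelled SCLtg LMO1tg, against 2.86 in control #3 and 2.52 and 1.48 in control #1 and #2. That of *Gapdh* was 3.10 to 3.51 in the arrays labelled SCLtg LMO1tg, against 3.01 in control #3 and 3.17 and 2.38 in control #1 and #2. Control #3 was thus the highest array by *Actb* and lay between the other controls by *Gapdh*, and the part of RNA quality in the result was not tested.

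**Figure D5:**
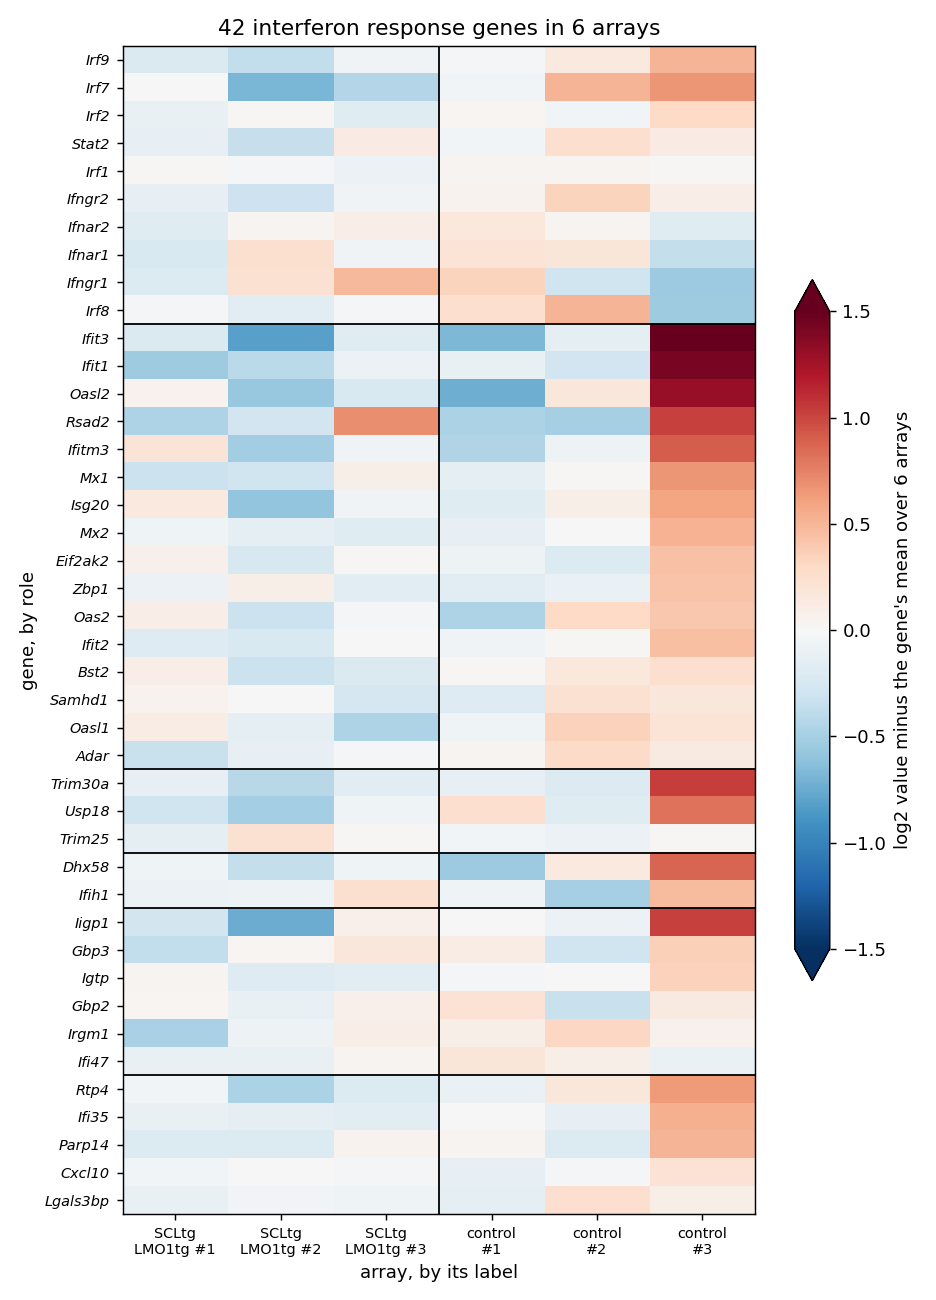
Value of each of the 42 genes (y axis, by role from receptors and regulators at the top to other genes at the bottom) in each array (x axis), as log2 value minus the gene's mean over 6 arrays, colour from −1.5 (blue) to 1.5 (red). The column of control #3 is darkest for *Ifit3*, *Ifit1*, *Oasl2*, *Rsad2*, *Trim30a* and *Iigp1*.

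Genes upstream of the response, and its feedback inhibitors, showed no common shift. Of 35 such genes listed, 27 were measured and 24 tested, and 0 passed limma at an adjusted p under 0.05, with 1 higher (against 6.30% of all genes) and 1 lower (against 3.14%) at an unadjusted p under 0.05. Their median was −0.08 between the labelled groups and close to 0 for control #3 against the other controls. *Socs3*, an inhibitor of cytokine receptor signalling, was the largest, with 9.24, 8.87 and 9.19 in the arrays labelled SCLtg LMO1tg, against 8.65, 8.13 and 7.91 in those labelled control, a difference of 0.87 (SE 0.21, adjusted p = 0.200 by limma). *Stat3*, a factor of the interleukin-6 family, had 8.08, 8.19 and 8.27 in the arrays labelled SCLtg LMO1tg, against 8.84, 8.69 and 8.54 in those labelled control, a difference of −0.51 (SE 0.14, adjusted p = 0.289 by limma). For both genes, picked for the size of their difference, the groups did not overlap. Over all 8693 genes this held for 7.32% in the direction of *Socs3* and 6.37% in that of *Stat3*. *Cish*, a feedback inhibitor of STAT5, differed by 0.37 and the kinase gene *Ikbke* by −0.35. Of the interferon genes themselves, *Ifnb1* lay under the filter, at 3.85 to 4.05 in the arrays labelled SCLtg LMO1tg and 4.07 to 4.25 in those labelled control, as did *Ifna4* and *Ifng*. *Ifna2* passed it, at 5.47 to 5.55 in the arrays labelled SCLtg LMO1tg and 5.65 to 5.93 in those labelled control (difference −0.31, adjusted p = 0.534 by limma).

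Other cell types that could carry interferon genes were read by marker lists. Markers of plasmacytoid dendritic cells, the main producers of type I interferon, averaged 6.40 to 6.57 in the arrays labelled SCLtg LMO1tg and 6.60 to 6.76 in those labelled control over 6 genes, without *Bst2* and *Irf8*, and 6.65 in control #3 lay inside the controls. Only 4 of these 6 passed the filter, and they had no common direction. Between the labels 4 were lower, *Ccr9* the most (−0.76), and 2 were higher, *Tcf4* and *Spib* (0.19 each). Macrophage and dendritic cell markers, 21 of 23 measured, averaged 6.60 to 6.91 in the arrays labelled SCLtg LMO1tg and 6.58 to 6.80 in those labelled control, with 6 of 21 higher in control #3 than in the other controls and a median difference of −0.15. Neutrophil markers, 17 of 20 measured, averaged 6.37 to 6.95 in the arrays labelled SCLtg LMO1tg, above the 5.67 to 6.22 of those labelled control, with 6.22 in control #3. Of these 17, 15 were higher in control #3 than in the other controls, by a median of 0.35 and none by 1 or more. Early thymocyte markers averaged 8.82 to 9.12 in the arrays labelled SCLtg LMO1tg and 8.59 to 8.91 in those labelled control, with 8.59 in control #3, the lowest of the 6 arrays. Of 15 tested, 1 passed limma at an adjusted p under 0.05, higher in the arrays labelled SCLtg LMO1tg (against 0.161% of all genes in either direction). At an unadjusted p under 0.05, 4 of 15 early thymocyte and 8 of 16 neutrophil markers were higher (against 6.30% of all genes). In both lists 0 were lower (against 3.14%). The part of neutrophils and of the thymocyte makeup in the interferon genes was not tested.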

How the data were processed

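Total RNA of 6 samples was labelled with biotin and read on Affymetrix mouse arrays. The deposited values are log2 expression per probe set. Per the methods, the authors obtained them by RMA in affy, whose versions are not given in the sources used here. The authors later dropped probe sets called absent by MAS5 and used Rank Products, and the deposited table holds all 22690 probe sets. Precision is limited by the number of arrays.

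Of the probe sets, 20380 carry the name of a single gene (20351 of these matched RefSeq by gene number), 691 name several genes, 1555 name no gene and 64 are Affymetrix controls, and only the single-gene ones were used. The test was limma 3.58.1 under R 4.3.3 with no covariate, Benjamini-Hochberg adjusted over 8693 genes, at a threshold of 0.05. Rank Products used the 9 pairwise differences with 100 permutations. Scripts were tested on simulated data.

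The members, the lists and the rule for named genes were chosen with earlier results of these data known. By that rule, values in every array are given for receptors, *Stat2* and IRF genes, for up to 5 members with the largest difference in each direction and for the 10 furthest from the other controls in control #3, with up to 4 genes for each further list. Other members are given by their differences.

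Arrays with the same number had residuals that correlated at −0.63 for #1, 0.05 for #2 and −0.38 for #3, and the numbers were therefore not read as pairs. Alternatives were other filters, normalizations, probe set rules and variance models, blocks for hybridization set or for replicate number, the removal of each array, an adjusted p under 0.1 and Rank Products. Promoter windows are those of RefSeq on GRCm38.p6.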

Additional observations from a re-analysis of the deposited data

How the results depend on the processing

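No member passed limma's threshold in the analysis reported, nor under other filters (none or the 60th percentile), normalizations or probe set rules, with either block, with trend and robust variances, at an adjusted p under 0.1, or without any 1 array. With array weights 1 passed, and by Rank Products 1, *Irf7* both times. The numbers do not pair the arrays, and with the replicate block 0 members and 9 of all genes passed, against 14. The count over all genes was 31 after quantile normalization, 28 with a block for hybridization set, 547 with array weights, 33 at an adjusted p under 0.1 and 87 by Rank Products, and 7 (without control #2) to 27 (without control #1) with each array left out. The members' median lay between −0.34 (without control #1) and −0.09 (without control #3), and that of control #3 against the other controls between 0.38 and 0.56 over the settings run. By the mean of all probe sets of a gene, 6 members in place of 8 exceeded the other controls by 1 or more in control #3.

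For the 20 members named with values and tested, 254 of 279 alternative values kept their direction and their side of the threshold and 24 turned. With 1 array left out, those that turned ranged, lowest to highest, from −0.68 to 0.032 for *Dhx58*, −1.35 to 0.0058 for *Ifit3*, −0.55 to 0.14 for *Ifitm3* and −0.99 to 0.031 for *Oasl2*, in each case highest without control #3. *Rsad2* ranged from −0.39 (without SCLtg LMO1tg #3) to 0.47 (without control #3), *Ifih1* from −0.18 (without control #2) to 0.30 (without control #3) and *Irf8* from −0.46 (without control #3) to 0.061 (without control #2). *Ifnar1* ranged from −0.21 to 0.081 and *Ifnar2* from −0.11 to 0.064, both lowest without control #3 and highest without SCLtg LMO1tg #1, and *Trim25* from −0.018 (without SCLtg LMO1tg #2) to 0.16 (without SCLtg LMO1tg #1). After quantile normalization *Ifih1* turned to −0.092 and *Trim25* to −0.023. With arrays centred on their medians *Ifnar1* turned to 0.024, *Ifnar2* to 0.029 and *Rsad2* to 0.017, and with array weights to 0.074, 0.016 and 0.048. The cause was not tested.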

Other observations

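A further list of 55 interferon-induced genes, outside the 47, had 40 measured, with 28 lower in the arrays labelled SCLtg LMO1tg (70.0%, against 59.4% of all genes) and a median of −0.15. Of 35 tested, 0 passed limma at an adjusted p under 0.05, and 6 were lower (against 3.14% of all genes) and 1 higher (against 6.30%) at an unadjusted p under 0.05. *Slfn8*, a Schlafen family gene of lymphocytes, had 7.29, 6.81 and 7.33 in the arrays labelled SCLtg LMO1tg, against 7.83, 7.63 and 8.28 in those labelled control (difference −0.77, SE 0.21, adjusted p = 0.266 by limma). *Gbp6*, a guanylate-binding protein gene, had 8.62, 8.58 and 8.88 in the arrays labelled SCLtg LMO1tg, against 9.16, 8.97 and 9.92 in those labelled control (difference −0.66, SE 0.23, adjusted p = 0.416 by limma). For both genes, picked for the size of their difference, the groups did not overlap, as for 6.37% of all 8693 genes in that direction. *Ddx60*, under the filter and so not tested, had the largest difference of the list, −0.78, but its groups overlapped. *Ccl5* went the other way, at 0.61, and its groups overlapped too.

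In control #3, 28 of the 40 lay above the other controls (70.0%, against 60.1% of all genes), with a median of 0.20. *Ddx60*, a helicase of RNA sensing under the filter, had 6.46 in control #3, against 4.90 and 5.38 in control #1 and #2, and was the 1 gene of this list among the 20 genes furthest above them. *Ccl5*, a chemokine gene of effector lymphocytes, went the other way, with 7.19 in control #3 and 8.61 and 8.78 in control #1 and #2. Genes of MHC class I presentation and antigen processing were mixed in control #3 against the mean of the other controls. *Tap2* gave −1.20, *H2-D1* −0.92, *H2-K1* −0.71, *Ifi30* −0.58, *B2m* −0.34, *Psmb8* −0.28 and *Psmb10* −0.13. In the other direction, *Tap1* gave 0.36, *Psmb9* 0.20 and *Psme1* 0.08. For *B2m*, control #1 (12.24) lay close to control #3 (12.19), with 12.83 in control #2. *H2-D1* had 10.95 both in SCLtg LMO1tg #1 and in control #3. These genes were named after their values were seen. *Xist*, chosen after its values were seen, had 10.91 in control #3, against 11.06 and 6.15 in control #1 and #2. It had 10.08, 10.37 and 11.16 in the arrays labelled SCLtg LMO1tg. Only control #2, part of the reference for control #3, was thus low. The sex of the mice is not among the labels, and its part in the results was not tested.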
